A study of Drosophila melanogaster with 2 samples.

Results

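The 10 genes described here are the gap genes *hb*, *Kr*, *kni*, *gt* and *tll* and the pair-rule genes *eve*, *ftz*, *h*, *run* and *odd* of *Drosophila melanogaster*. They were listed by name and not by a measured value, and they are 10 of the 13968 protein-coding genes annotated on the 7 chromosome arms. Ada2b, a subunit of the SAGA coactivator complex and partner of the Gcn5 histone acetyltransferase, was mapped in whole embryos by chromatin immunoprecipitation with an antibody to GFP followed by sequencing. The only group consisted of embryos aged 0 to 18 h of the strain Ada2b-GFP, which carries an insertion that encodes an Ada2b-eGFP fusion, in 2 biological replicates. Both replicates carried the fusion, and a control without it was not analysed here. With a single group of 2 replicates, no test between conditions was possible. Counts for the 10 genes are therefore given as a description beside the same counts over all protein-coding genes.

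These gap and pair-rule genes encode transcription factors that divide the early embryo along its head-to-tail axis. Maternal gradients, among them Bicoid, set broad domains of gap gene expression, and gap proteins then place the stripes of the pair-rule genes. The control elements of these genes commonly lie away from the promoter, upstream or downstream, each driving a domain or a stripe. Each gene is active in some cells and for part of the collected ages. In chromatin pooled from whole embryos, brief or cell-restricted use of a site cannot be told apart from weak use throughout.

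The conservative list of peaks, the shorter of the 2 series lists that pass a threshold on reproducibility, placed a summit inside or within 10 kb of 3 of the 10 genes, *h*, *ftz* and *odd*. Over all protein-coding genes 62.7% had such a summit. The 3 genes held 5 summits in all, 3 at *h* and 1 each at *ftz* and *odd*, and the 5 gap genes held none. No summit lay within 500 bp of a transcription start site (TSS) of any of the 10 genes, and none lay inside a gene. Over all protein-coding genes 17.5% had a summit within 500 bp of a TSS, and 12.3% of 13945 protein-coding genes had one inside the gene. A summit within 10 kb and none at a TSS, the layout of *h*, *ftz* and *odd*, was found at 3 of the 10 genes, against 45.2% of all protein-coding genes. In the map of candidate sites around the start sites, the 5 sites past the threshold stand on 3 of the lower rows, 4 of them downstream of the gene. The share of downstream summits over all genes is not given here.

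**Figure D1:**
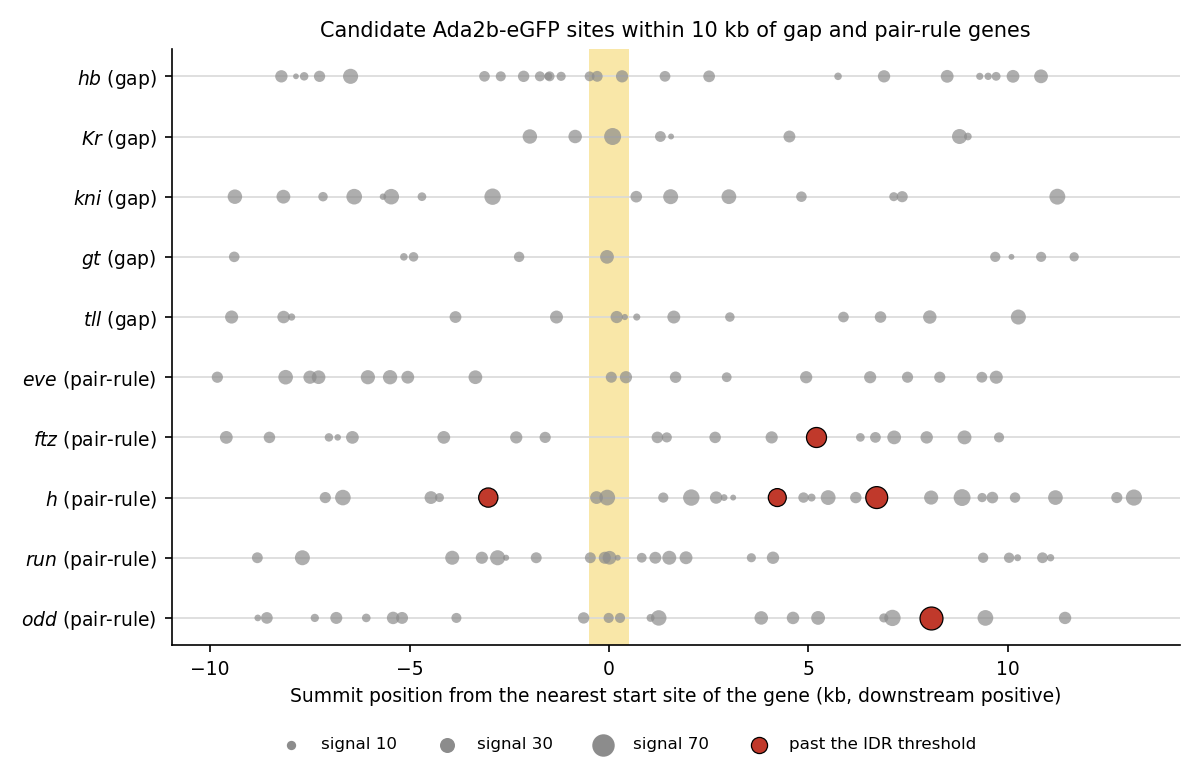
Each point is a candidate peak of the ranked list behind the conservative peaks, placed by its summit's distance in kb from the nearest start site of the gene named on the left (downstream positive); point area grows with the peak signal. Red points passed the reproducibility threshold (5 of 177 candidates, all at *ftz*, *h* and *odd*), and the yellow band marks 500 bp either side of the start, where all 17 candidates are grey. Over the arms 5.36% of the candidates in this list passed.

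The sequences of the 5 sites are shown because they are the only stretches near these genes that passed the threshold. Each is the reference sequence from 100 bp before to 100 bp after the summit (NCBI Release 6, the dm6 assembly), in order of signal, and capitals mark the letters CAGTGCA, which recur among them.
odd, downstream site, plus strand, chr2L:3598575-3598775: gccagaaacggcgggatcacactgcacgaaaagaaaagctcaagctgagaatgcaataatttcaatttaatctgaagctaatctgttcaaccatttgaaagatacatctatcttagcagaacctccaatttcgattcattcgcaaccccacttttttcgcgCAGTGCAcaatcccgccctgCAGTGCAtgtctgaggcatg
h, farther downstream site, plus strand, chr3L:8682567-8682767: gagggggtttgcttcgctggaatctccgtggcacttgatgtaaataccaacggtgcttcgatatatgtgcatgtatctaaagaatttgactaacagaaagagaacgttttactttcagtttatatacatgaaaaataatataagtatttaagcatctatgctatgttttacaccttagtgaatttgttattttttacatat
ftz, downstream site, plus strand, chr3R:6869408-6869608: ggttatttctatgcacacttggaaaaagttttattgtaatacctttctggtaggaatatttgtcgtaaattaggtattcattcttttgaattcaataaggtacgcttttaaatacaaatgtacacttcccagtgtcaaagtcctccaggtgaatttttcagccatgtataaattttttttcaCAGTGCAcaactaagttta
h, upstream site, plus strand, chr3L:8672633-8672833: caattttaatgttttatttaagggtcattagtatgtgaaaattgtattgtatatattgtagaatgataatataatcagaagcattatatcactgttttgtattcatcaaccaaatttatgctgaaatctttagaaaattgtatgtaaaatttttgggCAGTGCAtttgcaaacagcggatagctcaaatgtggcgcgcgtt
h, nearer downstream site, plus strand, chr3L:8680074-8680274: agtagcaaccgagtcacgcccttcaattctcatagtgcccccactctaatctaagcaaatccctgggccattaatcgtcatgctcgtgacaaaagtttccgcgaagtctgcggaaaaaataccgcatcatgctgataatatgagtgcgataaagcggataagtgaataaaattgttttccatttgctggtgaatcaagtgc

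The site near *odd*, a zinc finger repressor gene (FBgn0002985, minus strand, 2L 3604224 to 3606756), had the highest signal of the 5. The peak spanned 2L 3598520 to 3598829, with its summit 8.08 kb from the TSS and 5549 bp beyond the 3' end of the gene. Its signal, the value of the authors' peak caller, was 73.1, which was rank 2955 of the 4796 conservative peaks on the arms. The authors' q value for the peak was 0.0109.

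*h*, which encodes a basic helix-loop-helix repressor (FBgn0001168, plus strand, 3L 8675759 to 8679253, annotated as *hry*), was flanked by sites on both sides. The farther downstream peak, at 3L 8682512 to 8682821, had its summit 6.71 kb from the TSS, a signal of 66.6 and a q value of 0.0155. The upstream peak, at 3L 8672578 to 8672887, lay 3.03 kb from the TSS with a signal of 50.7 and a q value of 0.0821. The nearer downstream peak, at 3L 8680019 to 8680328, lay 4.22 kb from the TSS with a signal of 43.9 and a q value of 0.207. The upstream and nearer downstream peaks thus passed the threshold on reproducibility with q values above 0.05. At least 3 summits were found at 1 of the 10 genes, *h*, against 18.4% of all protein-coding genes.

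The site near *ftz*, a homeodomain gene within the Antennapedia complex (FBgn0001077, plus strand, 3R 6864324 to 6866244), spanned 3R 6869353 to 6869662. Its summit lay 5.18 kb from the TSS and 3264 bp beyond the 3' end, with a signal of 55.1 and a q value of 0.0469. For all 5 sites the nearest annotated TSS of any gene was that of the pair-rule gene itself, and no annotated feature covered the summit. The windows of *odd*, *h* and *ftz* held no other protein-coding gene, which limits what this nearness can show.

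All 5 sites ranked in the lower part of the conservative list. Their signals stood between percentile 4.48, for the nearer downstream site of *h*, and percentile 38.4, for the site of *odd*, and each was below the list's median of 86.2. Among the 91420 ranked candidates on the arms, most of which did not pass the threshold, the same signals stood between percentile 93.5 and 96.7.

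The replicates were compared through their own lists. A peak overlapping each of the 5 sites was among the ranked candidates of both replicates, with summits at most 85 bp from that of the conservative peak. The sites were selected for reproducibility in a list made from both replicates. Such matches and high percentiles are therefore no independent measure of agreement. At the *odd* site the signal was 45.1 in replicate 1 and 25.6 in replicate 2, at percentiles 95.5 and 92.4 of the candidates of those lists. At the farther downstream site of *h* it was 41.6 in replicate 1 and 27.5 in replicate 2. These were the only sites near the 10 genes in the thresholded list of replicate 1, and the thresholded list of replicate 2 held none. Signals are not normalized between lists, and percentiles depend on how many candidates a list holds, 66290 in replicate 1 and 52829 in replicate 2, so neither orders the replicates. At the upstream site of *h* the percentile was 91.4 in replicate 1 and 90.6 in replicate 2, whereas the rank was 5684 in replicate 1 and 4976 in replicate 2.

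Column 12 of the ranked lists gives the irreproducible discovery rate (IDR) of a candidate as −log10, and 2 is the threshold. In replicate 1 alone the *odd* site had 2.87 and the farther downstream site of *h* 2.19. In replicate 2 alone they had 0.95 and 1.86, both short of the threshold. The other 3 sites passed in neither replicate alone. The *ftz* site had 0.14 in replicate 1 and 0.59 in replicate 2, the upstream site of *h* had 0.54 and 1.37, and its nearer downstream site had 0.48 and 0.13.

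The lists made from both replicates differed on 3 of the 5 sites. In the ranked list behind the conservative peaks, column 12 was 3.20 and 3.17 at the farther downstream site of *h* and at *odd*, and 2.45, 2.37 and 2.00 at *ftz* and at the upstream and nearer downstream sites of *h*. In the second ranked list the first pair had 2.94 and 3.35, whereas the *ftz* site had 0.15 and the other sites of *h* 1.08 and 1.61. The second thresholded list accordingly held 2 of the 10 genes, *h* and *odd*, against 63.6% of all protein-coding genes. Replicate 1's thresholded list also held 2 of 10, against 55.6%, and that of replicate 2 held 0 of 10, against 51.4%.

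**Figure D2:**
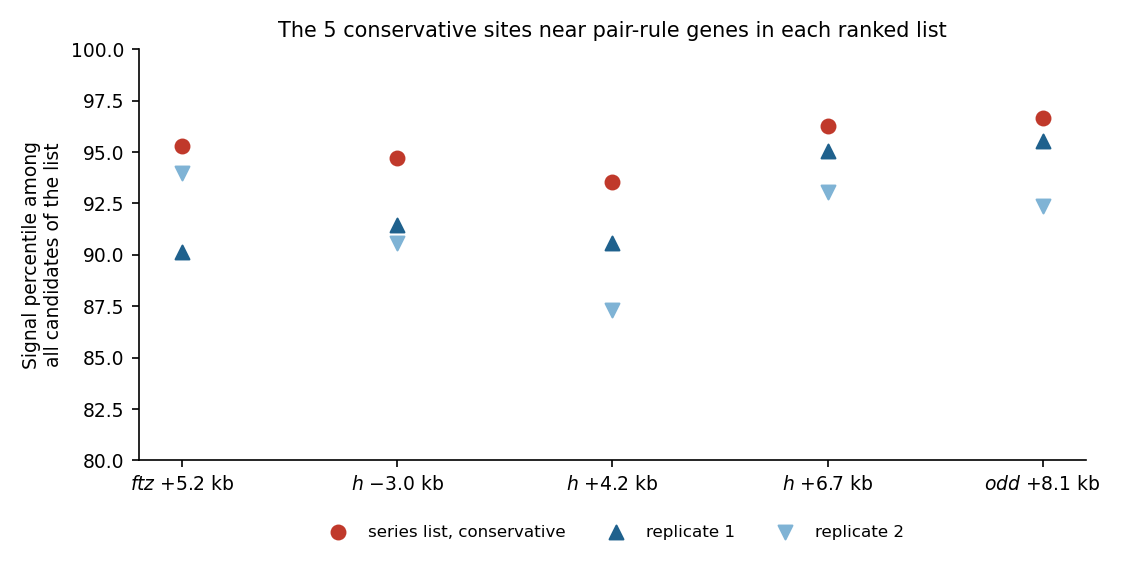
Points give the percentile of the peak signal (vertical axis, from 80 to 100) among all candidates of a list, for the 5 conservative sites on the horizontal axis. These sites were selected in a list made from both replicates. The replicate points lie between percentile 87.3 and 95.5, and since the replicate lists differ in length, 66290 and 52829 candidates, their points are not ordered against each other.

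No start site of the 10 genes carried a thresholded summit in any of the 4 thresholded lists. Over all protein-coding genes the share with one was 17.9% in the second series list, 14.2% in replicate 1 and 13.2% in replicate 2. Weaker candidates were present. In the ranked list behind the conservative peaks, 8 of the 10 genes had a candidate within 500 bp of a TSS, against 70.7% of all protein-coding genes, and *kni* and *ftz* had none. The second ranked list held one at 9 of 10, against 68.8%, that of replicate 1 at 8 of 10, against 61.9%, and that of replicate 2 at 6 of 10, against 57.3%. In the first of these lists the 17 promoter candidates had a median signal of 18.5 at percentile 56.2, against 20.1 at percentile 62.3 for the 14242 promoter candidates of all genes. Their highest value of column 12 was 0.58, at 312 bp upstream of a start of *h*. Of all promoter candidates on the arms 14.1% passed the threshold. Away from any promoter, 5 of the 152 candidates near the 10 genes passed, against 3.75% over the arms. The median signal of these 152 was 16.9, against 16.6 for candidates away from promoters over the arms.

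Among gap genes the strongest promoter candidate belonged to *Kr*, a zinc finger repressor gene (FBgn0001325, 2R 25226611 to 25231394). Its summit lay 91 bp downstream of the TSS with a signal of 39.1 at percentile 92.2 of all candidates, close to the 43.9 of the weakest site past the threshold. Column 12 was 0.49. Both replicates held an overlapping candidate, with summits 18 bp apart, at rank 6794 of 66290 in replicate 1 and rank 20795 of 52829 in replicate 2.

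*hb*, the zinc finger gene that responds to Bicoid (FBgn0001180, 3R 8690980 to 8697822), has 2 annotated start sites. Its strongest promoter candidate lay 328 bp downstream of one of them, with a signal of 19.2 at percentile 58.7. *gt*, a basic leucine zipper gene (FBgn0001150, X 2427113 to 2428967), had a candidate 50 bp upstream of its TSS with a signal of 24.7 at percentile 76.3, which overlapped a candidate in replicate 1 and none in replicate 2. *tll*, a terminal gap gene of the nuclear receptor family (FBgn0003720, 3R 30852315 to 30854400), had its strongest promoter candidate 193 bp downstream of the TSS with a signal of 19.1. *kni*, another nuclear receptor gene (FBgn0001320, 3L 20692330 to 20695378), had promoter candidates in the second ranked list only, the strongest with a signal of 14.0.

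Among pair-rule genes the start of *h* had the strongest promoter candidate, 44 bp upstream of a TSS, with a signal of 33.4 at percentile 89.0. Replicate 1 and replicate 2 both held overlapping candidates there, with summits 15 bp apart at the closest. In replicate 2 the candidate 44 bp upstream had a signal of 22.0 and 0.54 in column 12. That was above the 19.0 and 0.13 of the nearer downstream site of *h*. The other sites of *h* had higher signals there, 22.2 and 27.5. In replicate 1 the candidate 29 bp upstream of the same TSS had a signal of 14.3, below the 27.0, 28.5 and 41.6 of the sites of *h*. *run*, which encodes a Runt domain factor (FBgn0003300, X 20690670 to 20697321), had a signal of 24.7 at 13 bp downstream of a TSS. *eve*, a homeodomain gene (FBgn0000606, 2R 9979319 to 9980795), had 19.1 at 425 bp downstream, and *odd* had 12.3 at 8 bp upstream. Candidates at a start overlapped between the replicates at 3 of the 10 genes, *hb*, *Kr* and *h*, against 40.3% of all protein-coding genes. Over the whole windows 39.7% of the replicate 1 candidates overlapped one of replicate 2, against 44.8% over the arms, and 54.9% of the replicate 2 candidates overlapped one of replicate 1, against 52.1% over the arms.

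Counting every candidate in the window, the gap genes also stayed below the threshold. The candidate of *kni* with the highest column 12, 0.75, lay 6.39 kb upstream with a signal of 32.8 and was found in both replicates. That of *hb* lay 6.48 kb upstream and had 0.61, with an overlapping candidate in replicate 2 and none in replicate 1. The highest values were 0.51 for *Kr*, 0.39 for *tll* and 0.13 for *gt*, whose value belongs to the candidate at its start. Away from its start *gt* had no value above 0.056 in this list, but it had 0.31 in the second ranked list and 0.25 in replicate 1. With starts included the highest values of the gap genes thus ranged from 0.13 to 0.75 in the list behind the conservative peaks. The next gene past this range was *ftz*, with 2.45. In the second ranked list *kni* reached 0.83, and in replicate 2 *tll* reached 0.74.

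*eve* and *run*, although pair-rule genes, resembled the gap genes in this measure in the list behind the conservative peaks, with highest values of 0.58 and 0.36. In replicate 1 *eve* had 0.69, above the highest gap gene value there, 0.62 at *kni*. In replicate 2 *run* had 0.90, above the highest gap gene value there, 0.74 at *tll*. Their other highest values lay within the range of the gap genes in the same list. The *eve* window is the only one with several other protein-coding genes, *TER94*, *eIF3j* and *CG12134*. The 5 candidates at their starts in the ranked list behind the conservative peaks did not pass the threshold either. One candidate inside *h*, with a signal of 36.4 and 1.49 in column 12, was the only one in that list near the 10 genes between 1 and the threshold.

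**Figure D3:**
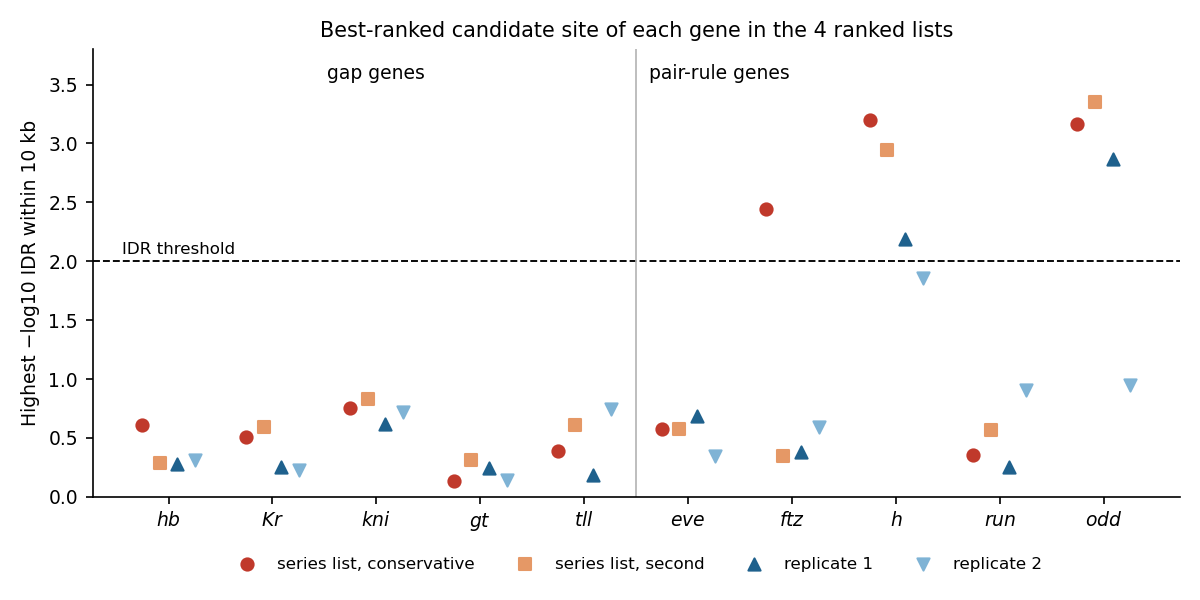
For each gene on the horizontal axis, points give the highest −log10 IDR (column 12) of any candidate within 10 kb in each of the 4 ranked lists, and the dashed line is the threshold of 2. The gap genes at left reach at most 0.83 in any list, and the points above the line belong to *ftz* in 1 list and to *h* and *odd* in 3 lists each.

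Candidates of any strength lay within 10 kb of all 10 genes in each ranked list, against 98.4% of protein-coding genes in the list behind the conservative peaks, 98.2% in the second ranked list, 98.2% in replicate 1 and 98.5% in replicate 2. The 10 windows covered 234.7 kb and held 177 candidates of the ranked list behind the conservative peaks, 7.54 per 10 kb, against a median of 8.49 per 10 kb over the windows of all protein-coding genes and 6.65 per 10 kb over the arms. Single genes ranged from 8 candidates at *Kr* to 26 at *h*. The gap gene windows held 5.99 candidates per 10 kb with a median signal of 14.6, and the pair-rule windows 9.13 per 10 kb with a median signal of 18.2. The 2 classes overlapped, from 3.23 per 10 kb at *Kr* to 9.31 at *hb* and from 8.25 at *run* to 11.1 at *h*. Summits past the threshold were at 0.213 per 10 kb in the 10 windows, against a median of 0.441 per 10 kb over the windows of all genes and 0.349 per 10 kb over the arms.

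For the best candidate in a window, the 10 genes stood in the lower part of all genes. The median over the 10 genes of the highest column 12 was 0.60, against 3.38 over the 13746 protein-coding genes with a candidate in the window. The highest value at *h* exceeded that of 48.1% of genes, at *odd* 47.7%, at *ftz* 40.1% and at *kni* 19.3%, and at *gt* it exceeded 0.888%. In replicate 1 alone the median was 0.33 for the 10 genes and 2.67 for all genes, and in replicate 2 alone it was 0.66 for the 10 genes and 2.28 for all genes. The median window was 22.8 kb for the 10 genes and 22.2 kb for all genes. The windows of *kni*, *tll*, *ftz*, *h*, *run* and *odd* held no other protein-coding gene. Those of *hb*, *Kr* and *gt* held 1 each. Neighbours were not counted for the windows of all genes. Of all conservative summits on the arms 40.8% lay at a promoter, and a neighbour's promoter summit counts for a window. How far neighbours shape the shares, highest values and distances to summits was not tested.

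The nearest conservative summit lay farther from most of the 10 genes than from a typical gene. The median distance was 17.4 kb, against 5.57 kb over 13945 protein-coding genes. The nearest summit was 14.2 kb from *hb*, 15.4 kb from *kni*, 19.4 kb from *eve*, 30.2 kb from *gt*, 33.5 kb from *tll*, 35.5 kb from *run* and 59.2 kb from *Kr*. For *eve* that summit had a signal of 659, and its nearest start was that of *Pal1*. *hb* and *kni* were the genes closest to the 10 kb limit from outside, and *odd*, at 5.55 kb, was the closest from inside. The summit nearest to *gt* had a signal of 2.08, near the lowest of the list, 2.04. Distances differed between thresholded lists. That of *tll* was 16.3 kb in the second list and in replicate 2. Others were longer, at 39.8 kb for *gt* and 21.6 kb for *hb* in replicate 1, and 15.6 kb for *ftz* in the second list.

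**Figure D4:**
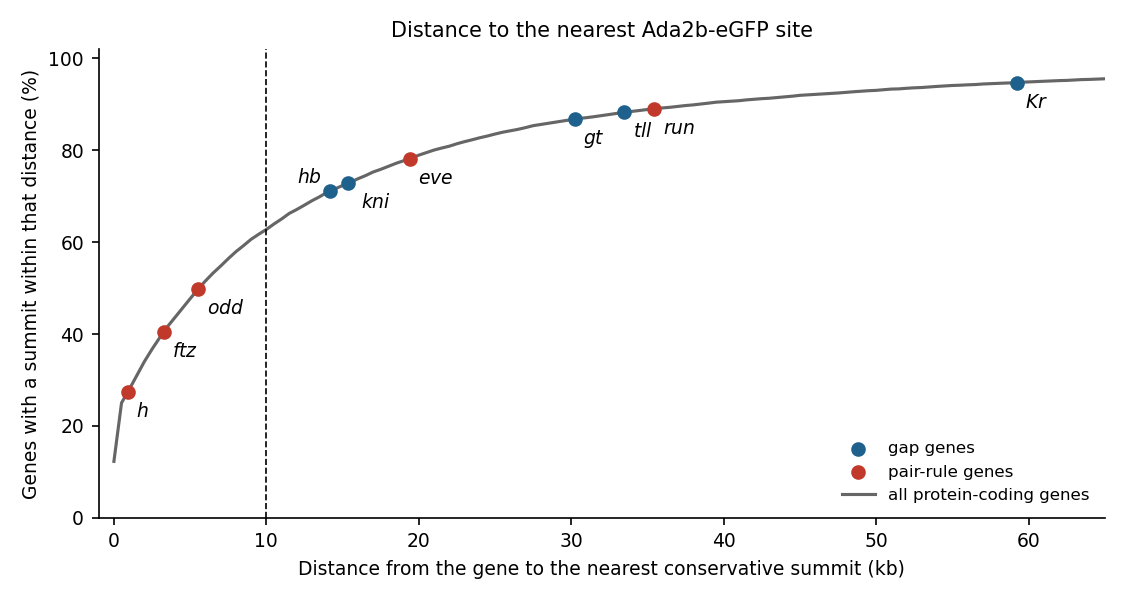
The curve gives the percentage of all protein-coding genes (vertical axis) with a conservative summit within a distance in kb (horizontal axis), and the points place the 5 gap and 5 pair-rule genes on it. *h*, *ftz* and *odd* lie left of the dashed line at 10 kb, and *Kr*, at 59.2 kb, lies farther from a summit than 94.7% of genes.

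The other 30 segmentation genes examined, from maternal to segment polarity genes, are given for comparison, with no test of a difference. In the conservative list 16 of the 30 (53.3%) had a summit inside or within 10 kb, against 62.7% of all protein-coding genes, and 3 had one at a TSS, against 17.5%. The 3 were the maternal genes *bcd*, with a signal of 99.2 at its start, and *nos*, and the head gene *cnc*. Of the other 5 genes listed as pair-rule, *slp1*, *slp2* and *Ten-m*, the last in a window of 134.8 kb, had a summit in the window and *prd* and *opa* had none. *slp1* and *slp2*, neighbouring forkhead genes, shared their strongest peak, with a signal of 300.1. The strongest peak near *Ten-m* lay at the start of *IleRS*. *knrl*, the paralogue of *kni*, had a peak with a signal of 81.7 inside the gene, and the *odd* paralogues *sob* and *drm* had 5 and 4 summits, of which the strongest near *sob* lay nearest to the start of *CG43815* and the strongest near *drm* to that of *IFT57*. Head gap genes all had a summit, *oc* 2 and *ems* and *btd* 1 each, although the *btd* peak lay nearest to *nej*. Among segment polarity genes *ptc* had 6 summits, *inv* 2 and *mid* 1, and *en*, *wg*, *hh*, *gsb*, *gsb-n*, *ci* and *fu* had none. Windows of long genes are wider, so counts compare windows and not densities.

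The 5 sites differed in base composition. Their GC content was 29.4% at the upstream site of *h*, 31.3% at *ftz*, 32.3% and 43.8% at the farther and nearer downstream sites of *h*, and 44.3% at *odd*, against a median of 34.8% over the 4796 conservative windows of the same length. None of the 5 held, on either strand, CAGGTAG, the motif of the early activator Zelda, GAGAG, bound by GAGA factor, TAATCC, the Bicoid core, or TATCGAT, from the DNA replication-related element. These letters were in 0.938%, 21.5%, 6.19% and 6.03% of the conservative windows. None of these 4 motifs contains or lies within CAGTGCA.

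The letters CAGTGCA, chosen after the sequences were read, occurred in 3 of the 5 sites, those of *odd*, *ftz* and the upstream site of *h*. The *odd* site held the letters 2 times, and in all 3 they lay between 60 and 85 bp to the right of the summit on the plus strand. On either strand the letters were in 10.9% of all 4796 conservative windows. Among candidates below the threshold they were in 7 of the 172 windows near the 10 genes (4.07%), against 4.21% of the 86518 windows over the arms. The count at the 5 sites is a description, since the letters were picked from these sequences.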

How the data were processed

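Peaks of Ada2b-eGFP were analysed as 8 deposited lists from 2 biological replicates, with dm6 coordinates. Per the labels, chromatin was sonicated to fragments of 200 to 800 bp. By the notes that the authors deposited, the series lists derive from alignments of both replicates and the replicate lists from alignments of 1, each with a control. The thresholded lists had 1 further input that those notes leave undescribed. No source used here names the aligner or the peak caller. The deposited signal is the peak caller's value, not normalized between lists. The deposited score is a rescaled IDR, at least 830 in every thresholded list. The authors also deposited a −log10 q value per peak and, in column 12 of ranked lists, the −log10 IDR. Read depth is unknown from these lists. The 4 signal columns of the series ranked lists that carry no replicate name were not used. Nothing says whether the replicates share a fly culture.

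Genes came from Ensembl release 115 and sequence from NCBI Release 6, and no peak passed the end of an arm. All 10 genes were matched, *h* as *hry*. Only the 7 arms were analysed, so 1 conservative peak was dropped. A summit counted for a gene inside it or within 10 kb, and for its promoter within 500 bp of a TSS. Peaks sharing at least 1 bp were matched between lists. Of 4902 ranked peaks past the threshold 106 were not in the conservative list. The counting was tested on simulated data. Python 3.11.15, numpy 2.4.6, pandas 2.3.3 and matplotlib 3.10.9 were used. All 10 genes were named, and other genes as the nearest start to a summit, as neighbours in a window, or from the list of other segmentation genes. The genes and lists were chosen with earlier results of these data known. Alternatives were the other lists, each replicate alone, stronger peaks, other windows, whole-peak overlap, the nearest TSS and, chosen after seeing the data, a threshold of 1 in column 12.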

Additional observations from a re-analysis of the deposited data

How the results depend on the processing

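The count of 0 genes with a promoter summit was the same in all 9 alternatives, including windows of 250 and 1000 bp. The window of 250 bp and the peaks at or above the median signal could give only 0. Both keep a part of the summits already counted. The alternatives share peaks and are no independent repeats. Shares of all genes with a promoter summit are given above for the other lists and each replicate, and are not given for the remaining alternatives. The count of 3 genes with a summit within 10 kb was 0 to 2 when one replicate was left out. It was 0 among peaks at or above the median signal, which follows from all 5 sites lying below that median. The share of all genes with such a peak is not given here. With 20 kb either side it was 6, where *hb*, *kni* and *eve* were added and 78.8% of all genes had a summit. With 5 kb it was 2, against 47.6% of all genes. The count of 5 summits was 0 to 2 when one replicate was left out, 2 in the other thresholded list, 0 among peaks at or above the median signal and 14 with 20 kb either side. Both counts were 0 without replicate 1 and 2 without replicate 2, and the cause was not tested. With a threshold of 1 in column 12, chosen after seeing the data, the same 3 genes held 6 sites. The share of all genes at that threshold is not given here. No paired analysis was possible because the samples form a single group. Read depth, not known here, limits how far the absence of a summit can be read.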
